A study of Rattus norvegicus with 14 samples.

Results

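The cytokine system of the rat liver was read from 91 probe sets of an array with 8799. They were chosen by symbol: a probe set with a single gene symbol in the platform annotation was taken when that symbol began with Il, Ccl or Ccr and a digit, or with Cxcl, Cxcr, Tnf, Ifn or Csf, and Csf1r was left out. A pair of them, for Il10 and Il4, were the manufacturer's mouse control probe sets and were set aside. The other 89 probe sets stood for 63 genes, of 4736 genes named by a single symbol on the array. Total RNA came from the left lateral lobe of the liver, taken at necropsy, and about 5 µg went into each target for an Affymetrix oligonucleotide array of rat genes. The 3 groups were a magnesium-supplemented diet (5 arrays, numbered 1 to 5), a standard diet (5 arrays, 6 to 10) and a magnesium-deficient diet (4 arrays, 11 to 14). The labels name the diet alone: they give neither its magnesium content nor its duration, nor the strain, sex or age of the rats. They do not say whether each array was a separate animal, so the p-values measure the spread between arrays, which may in part be technical.

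Cytokines are secreted proteins through which cells call up and restrain inflammation. Interleukins, tumour necrosis factor and the interferons bind receptor chains on the target cell, chemokines draw leukocytes along a gradient through receptors of their own, and colony stimulating factors keep macrophages and granulocytes alive. In the liver the resident macrophages (Kupffer cells) are a main source of interleukin 1, interleukin 6 and tumour necrosis factor, while hepatocytes carry the receptors and answer with acute phase proteins. Many cytokine genes are held silent until the transcription factor NF-kB reaches their promoters. Magnesium-deficient rats are known as a model of inflammation, with raised circulating cytokines. The comparison therefore asks which of these genes gave a signal in the liver at all, and whether any of them differed between diets.

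Promoters of 45 of the 63 genes were found in the RefSeq table of the rat assembly GRCr8, as windows of 300 bases from 250 before to 50 after the start of the gene. A match to the NF-kB consensus, by its name (3 G, a purine, any base, A or T, a pair of pyrimidines, a pair of C, on either strand), lay in the windows of 11 of the 45 genes, or 24.4%, against 4.18% of all 33469 promoters of that length. The 11 were Ccl20, Ccr3, Cxcl10, Cxcl2, Cxcl6, Ifnb1, Il1r1, Il1rap, Il4r, Il6 and Tnfrsf8. The STAT motif TTCNNNGAA, which reads the same on both strands, was found in none of the 45 windows and in 8.87% of all promoters. A match is a description of letters, and nothing about the factor follows from its presence or absence. The 250 bases before the start are shown for 4 genes, 5′ to 3′, with the NF-kB matches in capitals. Il6 and Cxcl2 are inflammatory genes with a match whose signals stayed dim on these arrays, and Il6r and Cxcl14 lack one and are the receptor and the chemokine that the values below turn on. The 4 do not stand for the rest. Il4r has a match and was above the background level set below on all 14 arrays. Tnf lacks a match and was above that level on none.
Il6, chr4:5894576-5894825, minus strand: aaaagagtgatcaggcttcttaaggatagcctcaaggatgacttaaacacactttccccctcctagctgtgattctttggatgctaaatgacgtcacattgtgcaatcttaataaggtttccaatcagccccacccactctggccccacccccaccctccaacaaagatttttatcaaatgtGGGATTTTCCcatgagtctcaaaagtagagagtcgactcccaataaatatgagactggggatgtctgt
Cxcl2, chr14:17467256-17467505, minus strand: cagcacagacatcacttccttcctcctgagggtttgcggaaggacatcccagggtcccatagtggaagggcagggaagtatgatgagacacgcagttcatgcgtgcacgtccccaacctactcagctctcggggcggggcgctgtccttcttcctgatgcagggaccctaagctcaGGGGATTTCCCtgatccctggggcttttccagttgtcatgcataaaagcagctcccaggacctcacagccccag
Il6r, chr2:177645210-177645459, minus strand: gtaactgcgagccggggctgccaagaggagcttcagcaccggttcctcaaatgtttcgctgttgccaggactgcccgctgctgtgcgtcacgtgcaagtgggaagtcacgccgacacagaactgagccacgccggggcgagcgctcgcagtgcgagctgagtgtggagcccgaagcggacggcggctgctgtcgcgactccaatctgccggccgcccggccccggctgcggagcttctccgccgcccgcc
Cxcl14, chr17:8322900-8323149, plus strand: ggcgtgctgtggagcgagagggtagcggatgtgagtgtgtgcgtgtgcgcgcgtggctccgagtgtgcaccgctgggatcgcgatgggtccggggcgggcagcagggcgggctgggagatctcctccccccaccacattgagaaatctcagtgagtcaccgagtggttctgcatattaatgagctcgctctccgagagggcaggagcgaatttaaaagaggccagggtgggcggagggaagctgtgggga
The Il6 match began 68 bases before the start. In Cxcl2 a pair of overlapping matches began 74 and 73 bases before the start.

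All values below are log2 levels of probe set signals after quantile normalisation, with a floor at 1.97 (3.93 units) that dim signals were raised to. The deposited signals of the arrays had medians between 18.1 and 34.6 units, a ratio of 1.91 at most. The ratio of the 3′ to the 5′ Gapdh control signals, a measure of RNA integrity, was 0.71 ± 0.49 on the log2 scale (SD, n = 5) with the supplemented diet, 1.64 ± 0.61 (n = 5) with the standard diet and 1.84 ± 0.65 (n = 4) with the deficient diet. This ratio moved with the diet, and its part in the differences was not tested beyond a fit that held it as a covariate. Supplemented 5, standard 10 and deficient 13 had stood apart in RNA quality or in their correlation with the other arrays. The labelled tissue was borne out by 7 hepatocyte genes (among them Alb and Ttr), all above background on all 14 arrays.

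How many cytokine genes gave a signal above background depended on where background was set. No detection calls came with the values, so background was set on each array as the 95th percentile of 75 probe sets for 46 genes known from other tissues, such as retina, testis and stomach. It lay between 4.66 (deficient 14) and 5.51 (standard 6). Of the 63 genes, 9 had a probe set above background on all 14 arrays: Csf2rb, Cxcr4, Il1a, Il33, Il4r, Il6r, Tnfrsf1a, Tnfrsf21 and Tnfsf13. On 1 to 13 arrays there were 18: Ccl2, Ccl5, Csf1, Csf3, Cxcl10, Cxcl14, Cxcl6, Cxcr1, Ifngr1, Il15, Il18, Il1b, Il1r2, Il1rl1, Il2rb, Il5, Il6st and Tnfrsf11b. The other 36 were above background on none, a count that fell to 30 and to 16 with the milder levels given below.

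Counted by probe set, 11 of the 89 (12.4%) were above background on all 14 arrays, against 32.0% of all 8740 probe sets other than controls. On no array above background were 57 of the 89 (64.0%), against 44.9% of all. Cxcl3, a neutrophil chemokine, and Ifnb1, an interferon made on viral infection, were at the floor on all 14 arrays. At that floor throughout were also single probe sets of Il1r1, Il1rl1, Il3 and Il6. The mouse control probe sets for Il10 and Il4 were above background on 0 arrays.

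The level is a strict one, because some of the genes it rests on were themselves bright in liver, and a milder level moved the count. With the highest of 15 bacterial control probe sets as background, 3.39 to 4.46 across arrays, 17 genes were above it on all 14 arrays and 16 on none. With the 90th percentile of the same reference genes, the counts were 13 and 30. The brightness of a probe set also depends on its own sequence, so a dim signal is not a measure of a rare transcript, and no gene's level is set against another's.

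**Figure D1:**
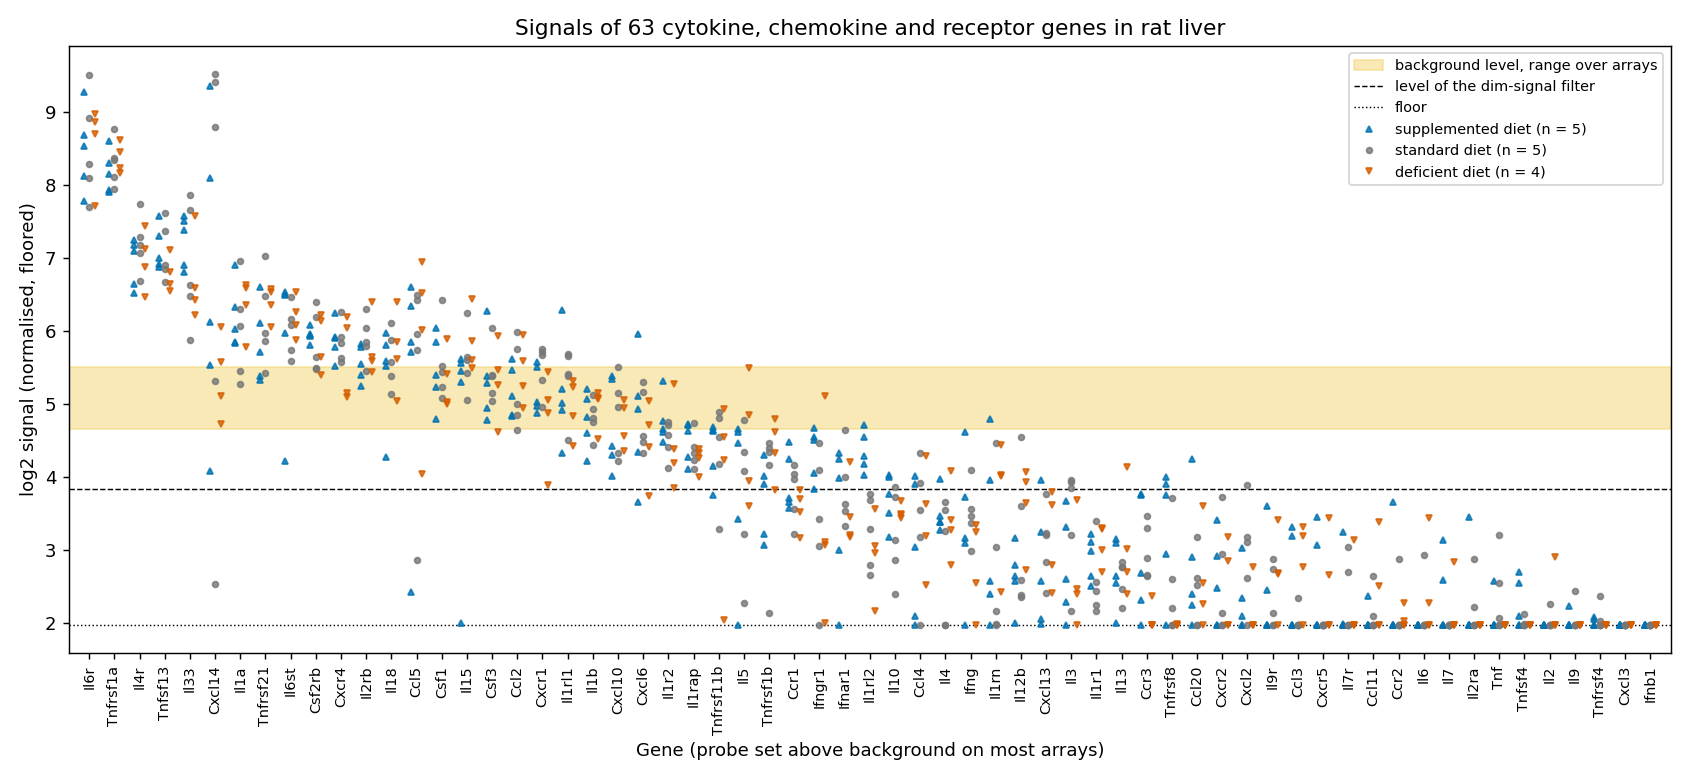
Log2 signal of 1 probe set for each of the 63 genes (that above background on the most arrays), each point an array of the supplemented, standard or deficient diet, with a band for the background level over arrays, a dashed line for the filter at 3.83 and a dotted line for the floor at 1.97. Measured against each array's own background, 9 genes lie above it on all 14 arrays and 36 on none.

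Receptors were above background somewhat more often than ligands, by count alone. Of 28 genes for receptors and receptor subunits, 6 were above background on all 14 arrays and 15 on none. Of 35 genes for ligands and the antagonist Il1rn, 3 were above on all 14 arrays and 21 on none. The 6 receptor genes were Csf2rb, Cxcr4, Il4r, Il6r, Tnfrsf1a and Tnfrsf21, and the 3 ligand genes were Il1a, Il33 and Tnfsf13. This difference in count was not tested.

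**Figure D2:**
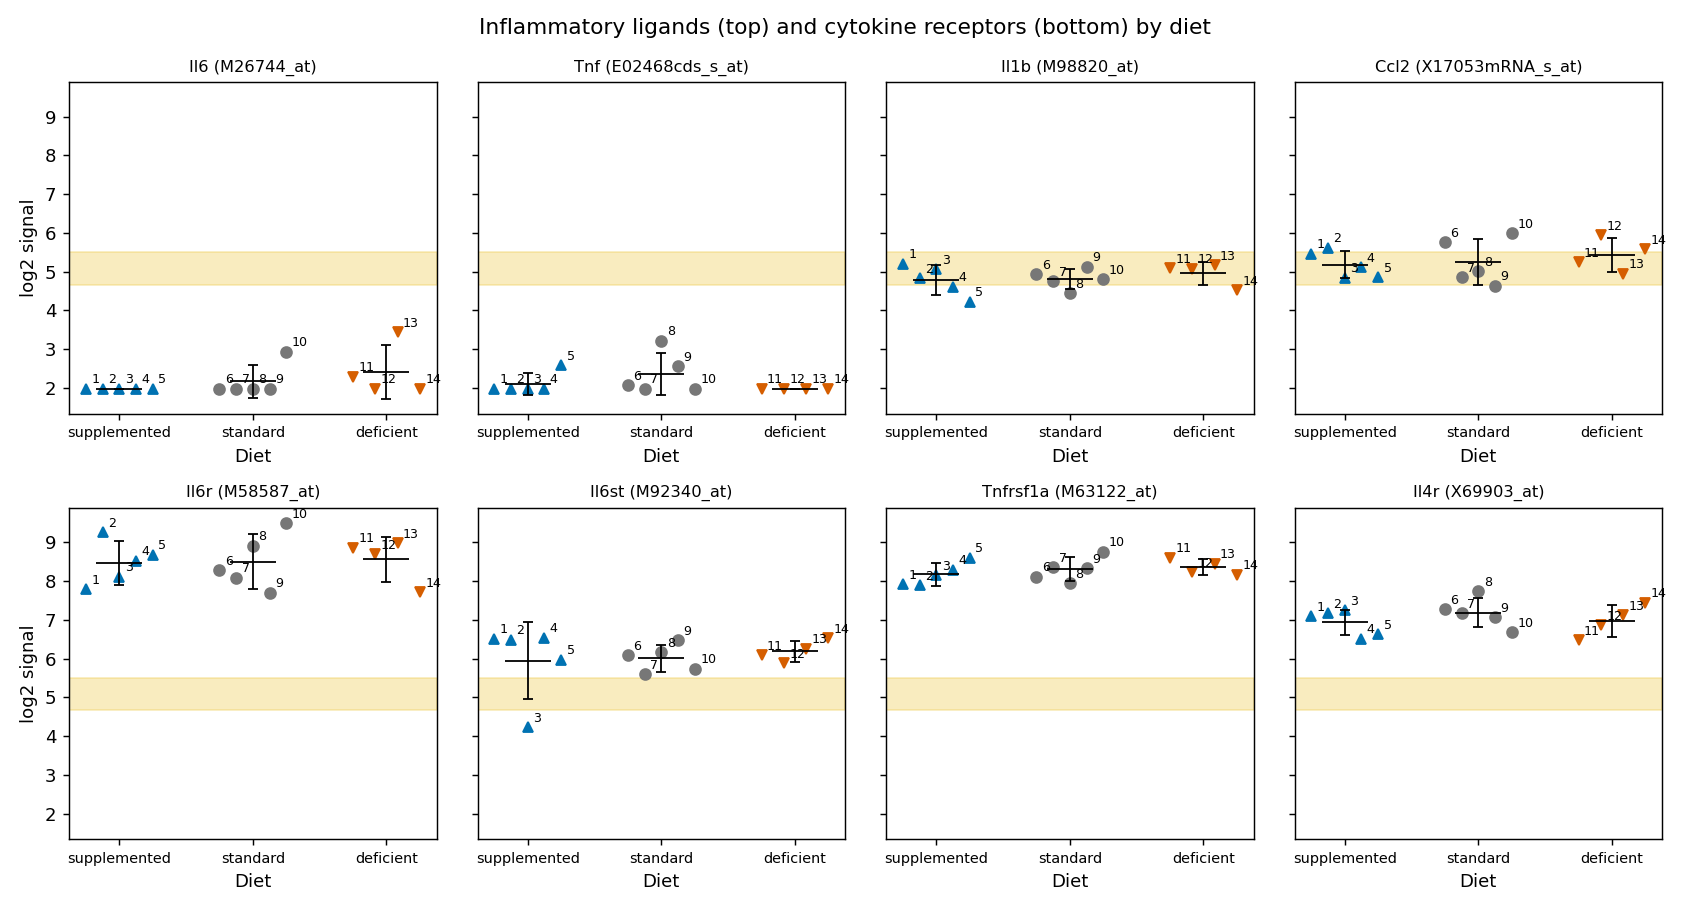
Log2 signal on each numbered array by diet for the ligands Il6, Tnf, Il1b and Ccl2 (top) and the receptors Il6r, Il6st, Tnfrsf1a and Il4r (bottom), with lines for the mean ± SD and a band for the background level, 4.66 to 5.51 across arrays. Il6 and Tnf lie at or near the floor in every diet, while Il6r, Tnfrsf1a and Il4r lie above the band on all 14 arrays.

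Among 15 interleukin genes, Il1a and Il33 were above background on all 14 arrays. Both are alarm signals that are stored in cells and released on damage. The Il33 log2 levels were 6.90, 7.38, 7.57, 6.80 and 7.50 on the supplemented arrays, 6.47, 7.66, 7.86, 5.88 and 6.63 on the standard arrays and 6.22, 6.58, 7.58 and 6.42 on the deficient arrays. The diets overlapped widely, and standard 9 was the lowest array. The brightest of the 3 Il1a probe sets read 5.86, 6.03, 6.91, 5.84 and 6.33 with the supplemented diet, 6.30, 6.96, 5.46, 6.07 and 5.27 with the standard diet and 6.35, 5.78, 6.63 and 6.59 with the deficient diet. Here too the diets overlapped, and standard arrays 8 and 10 were low. Another Il1a probe set for the same sequence was above background on 13 arrays, and a further one on none.

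Interleukin 1 beta, the secreted form that drives fever and acute phase protein synthesis, was near background. Its brightest probe set read 5.21, 4.83, 5.07, 4.61 and 4.22 on the supplemented arrays, 4.93, 4.75, 4.44, 5.12 and 4.81 on the standard arrays and 5.08, 5.08, 5.16 and 4.52 on the deficient arrays. It was above background on 3 arrays, all diets overlapped, and deficient 14 lay below the other deficient arrays. Il18, which Kupffer cells make and which induces interferon gamma, had a pair of tested probe sets. The brighter read 5.59, 5.81, 5.98, 5.51 and 4.28 with the supplemented diet, 5.14, 6.11, 5.58, 5.39 and 5.88 with the standard diet and 6.40, 5.62, 5.85 and 5.04 with the deficient diet. Supplemented 5 was its lowest array. The dimmer read 5.17, 4.78, 5.10, 4.61 and 4.53 on the supplemented arrays, 4.99, 5.10, 4.19, 4.57 and 4.25 on the standard arrays and 4.23, 4.44, 4.35 and 4.51 on the deficient arrays. On this probe set the 4 deficient arrays lay below the 5 supplemented arrays without overlap, and the standard arrays spanned both, but the brighter probe set did not show this order.

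Il15, a growth factor of natural killer cells, was above background on 12 arrays by its brightest probe set. Its levels were 5.45, 5.31, 5.62, 5.56 and 2.01 on the supplemented arrays, 5.05, 5.65, 5.61, 5.43 and 6.25 on the standard arrays and 5.61, 5.87, 6.44 and 5.49 on the deficient arrays. The low array was supplemented 5, near the floor, where the other 4 supplemented arrays lay between 5.31 and 5.62. Il5, the eosinophil factor, was above background on 1 array and ranged from the floor to 5.50.

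Interleukin 6, the main inducer of the hepatic acute phase response, was not seen above background. Its probe set M26744_at read 1.97, 1.97, 1.97, 1.97 and 1.97 with the supplemented diet, 1.97, 1.97, 1.97, 1.97 and 2.93 with the standard diet and 2.28, 1.97, 3.44 and 1.97 with the deficient diet. Off the floor were standard 10, deficient 11 and deficient 13. The other Il6 probe set was at the floor on all 14 arrays. Il10, a brake on macrophages, was also above background on none, with levels of 3.51, 3.77, 4.00, 3.19 and 4.02 on the supplemented arrays, 3.15, 3.86, 2.87, 2.41 and 3.73 on the standard arrays and 3.48, 3.45, 3.67 and 3.49 on the deficient arrays on its brightest probe set. Il2, Il3, Il4, Il7, Il9, Il12b and Il13, known mainly from lymphocytes, mast cells, stroma or dendritic cells, were above background on no array.

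The receptor of interleukin 6 was clear on every array. Il6r, the ligand-binding chain, read 7.79, 9.27, 8.12, 8.53 and 8.68 on the supplemented arrays, 8.29, 8.09, 8.92, 7.70 and 9.50 on the standard arrays and 8.87, 8.69, 8.97 and 7.71 on the deficient arrays. Each diet spanned more than 1 log2 unit, and the ranges overlapped almost fully. Il6st (gp130), the shared signalling chain, was above background on 13 arrays and read 6.51, 6.49, 4.23, 6.53 and 5.97 with the supplemented diet, 6.08, 5.60, 6.16, 6.47 and 5.74 with the standard diet and 6.08, 5.88, 6.25 and 6.53 with the deficient diet. The exception was supplemented 3, at 4.23. Il4r, the receptor chain for interleukins 4 and 13, read 7.10, 7.18, 7.24, 6.51 and 6.64 on the supplemented arrays, 7.28, 7.17, 7.74, 7.07 and 6.68 on the standard arrays and 6.47, 6.87, 7.13 and 7.44 on the deficient arrays, with overlap of all diets.

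Of the interleukin 1 receptor family, Il1r1, the signalling receptor, was above background on none of the 14 arrays with any of its probe sets. M95578_at, its brightest, read 2.99, 2.65, 3.12, 3.22 and 2.51 on the supplemented arrays, 2.56, 2.25, 2.44, 3.40 and 2.17 on the standard arrays and 3.31, 3.00, 3.29 and 2.70 on the deficient arrays. The antagonist Il1rn was likewise above background on no array. It read 4.80, 3.96, 2.41, 2.58 and 1.97 with the supplemented diet, 1.97, 4.46, 3.05, 1.99 and 2.17 with the standard diet and 2.43, 4.04, 4.02 and 4.44 with the deficient diet. The supplemented and standard arrays ran from the floor to over 4, and the deficient arrays from 2.43 to 4.44. The decoy receptor Il1r2 was above background on 1 array, the Il33 receptor Il1rl1 on 7, and the accessory chain Il1rap and the interleukin 36 receptor Il1rl2 on none. Il2rb, a receptor chain for interleukins 2 and 15, was above background on 13 arrays, and Il2ra, Il7r and Il9r on none.

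Tnf, the gene of tumour necrosis factor, was above background on no array. It read 1.97, 1.97, 1.97, 1.97 and 2.59 on the supplemented arrays, 2.07, 1.97, 3.21, 2.56 and 1.97 on the standard arrays and 1.97, 1.97, 1.97 and 1.97 on the deficient arrays. Values off the floor were scattered over supplemented 5 and standard 6, 8 and 9, and none was above background. Its receptor Tnfrsf1a, present on most cells, read 7.93, 7.90, 8.15, 8.30 and 8.60 with the supplemented diet, 8.11, 8.36, 7.94, 8.34 and 8.76 with the standard diet and 8.61, 8.24, 8.45 and 8.17 with the deficient diet. The spread within a diet was small here (0.28 on the log2 scale), and the diets overlapped. The other receptor, Tnfrsf1b, was above background on none. Tnfrsf21 (death receptor 6) was above background on all arrays, the osteoprotegerin gene Tnfrsf11b on 1, and the T cell molecules Tnfrsf4 and Tnfrsf8 on none.

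Of the TNF ligands, Tnfsf13 (APRIL), a B cell survival factor, was above background on all 14 arrays with a pair of probe sets for different sequences. The brighter read 6.92, 7.00, 6.87, 7.29 and 7.58 on the supplemented arrays, 7.62, 6.91, 7.36, 6.84 and 6.68 on the standard arrays and 6.81, 7.11, 6.54 and 6.64 on the deficient arrays. Deficient arrays 13 and 14 were low, and the ranges overlapped. Tnfsf4 was above background on none.

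CC chemokines, which draw monocytes and lymphocytes, were seen for Ccl2 and Ccl5. Ccl2, the monocyte attractant, read 5.47, 5.62, 4.84, 5.11 and 4.85 on the supplemented arrays, 5.76, 4.85, 5.00, 4.64 and 5.99 on the standard arrays and 5.24, 5.94, 4.95 and 5.58 on the deficient arrays on its brighter probe set. It was above background on 7 arrays, and the diets overlapped. Ccl5 read 6.34, 5.85, 6.61, 5.71 and 2.43 with the supplemented diet, 2.87, 6.49, 6.42, 5.96 and 5.74 with the standard diet and 4.04, 6.02, 6.52 and 6.95 with the deficient diet. Most arrays lay near 6, while supplemented 5, standard 6 and deficient 11 were low, so each diet held a low array. Ccl3, a macrophage product, was off the floor on supplemented 1 and 3, standard 8 and deficient 12, 13 and 14 and highest at 3.33, below background. Ccl4, Ccl11 and Ccl20 were above background on none.

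CXC chemokines, of which most draw neutrophils, were dim apart from Cxcl14, a chemokine made by many epithelia. Its probe sets, rc_AA874803_at and rc_AA874803_g_at, were made for the same sequence tag and are not independent. With rc_AA874803_at the levels were 3.87, 6.65, 5.03, 5.25 and 7.71 on the supplemented arrays, 8.22, 7.79, 4.91, 4.02 and 7.53 on the standard arrays and 4.84, 4.31, 3.77 and 4.66 on the deficient arrays. With rc_AA874803_g_at they were 4.08, 8.09, 5.54, 6.12 and 9.36 with the supplemented diet, 9.52, 8.78, 5.32, 2.53 and 9.40 with the standard diet and 6.05, 4.73, 5.11 and 5.57 with the deficient diet. On both, the same 5 arrays were high, namely supplemented 2 and 5 and standard 6, 7 and 10, while no deficient array was among them. Within the standard diet rc_AA874803_g_at ran from 2.53 to 9.52, wider than its range over the deficient arrays.

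Cxcl10, induced by interferons, was above background on 3 arrays and Cxcl6 on 2. Cxcl2, the neutrophil attractant whose promoter is shown above, read 1.97, 2.35, 1.97, 2.10 and 3.03 on the supplemented arrays, 3.90, 3.11, 2.62, 1.97 and 3.18 on the standard arrays and 1.97, 1.97, 1.97 and 2.78 on the deficient arrays. No array reached background. Cxcl3 and Cxcl13 were above background on none.

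**Figure D3:**
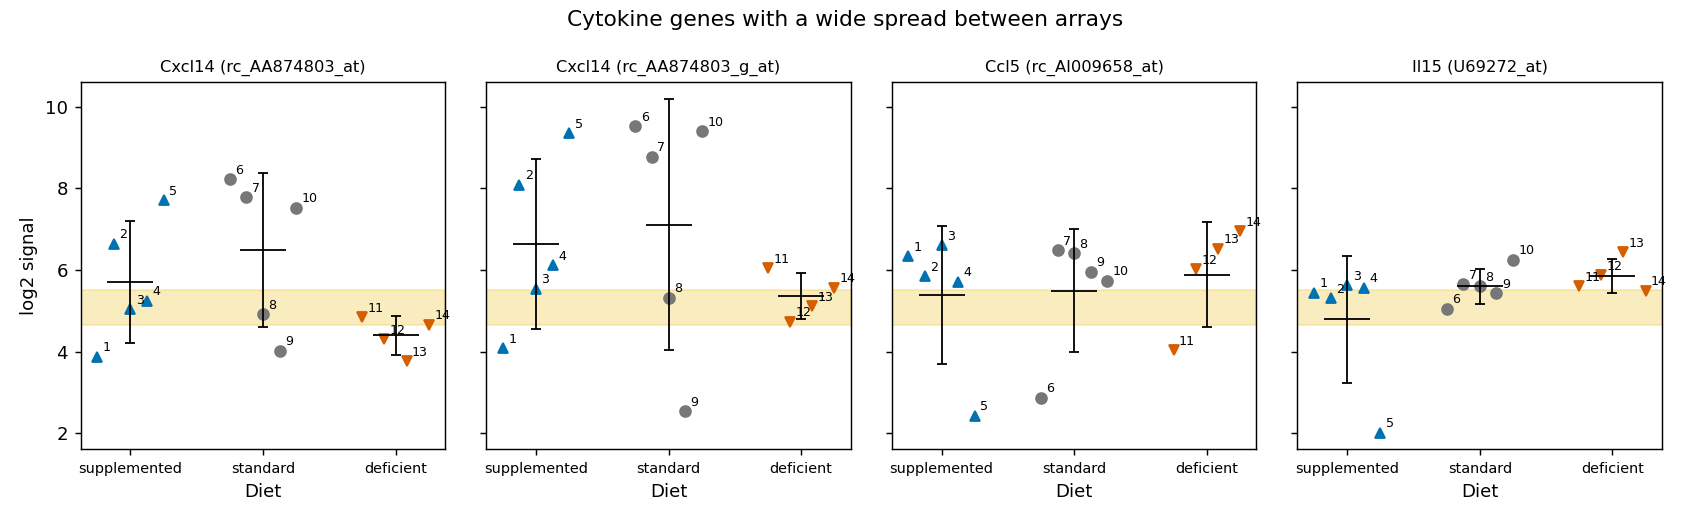
Log2 levels of Cxcl14, Ccl5 and Il15 on each array by diet, with bars for the mean ± SD and a band for the background level, 4.66 to 5.51 across arrays. For rc_AA874803_g_at of Cxcl14 the standard arrays run from 2.53 to 9.52, and Il15 falls to 2.01 on supplemented 5.

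Among chemokine receptors, Cxcr4, carried by many leukocytes and by endothelium, was above background on all 14 arrays. It read 5.91, 5.52, 5.91, 5.78 and 6.25 on the supplemented arrays, 6.25, 5.58, 5.92, 5.63 and 5.84 on the standard arrays and 6.19, 6.05, 5.10 and 5.15 on the deficient arrays on 1 of its probe sets. Deficient 13 and 14 were the low arrays. Cxcr1, a chemokine receptor of neutrophils, read 4.98, 4.88, 5.58, 5.03 and 5.51 with the supplemented diet, 5.71, 5.33, 5.75, 4.97 and 5.67 with the standard diet and 5.44, 3.90, 4.88 and 5.05 with the deficient diet. It was above background on 8 arrays, deficient 12 was low, and the ranges of the diets overlapped. Ccr1, Ccr2, Ccr3, Cxcr2 and Cxcr5 were above background on none. Ccr2, the receptor for Ccl2, was at the floor on most arrays and highest at 3.66 on supplemented 5.

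Interferons were not seen. Ifng, the product of T and natural killer cells, read 1.97, 3.73, 3.17, 3.09 and 4.62 on the supplemented arrays, 3.56, 3.37, 3.47, 2.99 and 4.10 on the standard arrays and 3.25, 2.56, 3.35 and 1.97 on the deficient arrays on its brighter probe set, and none of these values was above background. The receptor gene Ifngr1 was above background on deficient 14 alone, at 5.12, and Ifnar1 on none. Ifngr1 did not pass the filter on dim probe sets. The colony stimulating factors Csf1 (for macrophages) and Csf3 (for granulocytes) were above background on 11 and 9 arrays. Csf1 read 5.24, 4.79, 5.40, 5.85 and 6.04 with the supplemented diet, 6.43, 5.44, 5.51, 5.23 and 5.09 with the standard diet and 5.41, 5.89, 5.03 and 5.01 with the deficient diet, with supplemented 5 and standard 6 high. Csf3 read 5.28, 4.94, 4.78, 5.38 and 6.27 on the supplemented arrays, 6.04, 5.04, 5.38, 5.15 and 5.40 on the standard arrays and 5.47, 5.93, 5.26 and 4.62 on the deficient arrays, and the same arrays were high. Csf2rb, the shared chain of the GM-CSF, interleukin 3 and interleukin 5 receptors, lay between 5.40 and 6.40 on all arrays.

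The comparison of the deficient with the standard diet found no cytokine gene past the test. Of the 89 probe sets, 34 for 28 genes passed the filter on dim probe sets (a mean over all arrays above 3.83, or 14.3 units) and were tested with limma, in 1 model of all 14 arrays and 5133 probe sets. With limma, 0 of 34 had a Benjamini-Hochberg adjusted p under 0.05, where 0.00% of all tested were called. Without adjustment, 2 of 34 (5.88%) had a limma p under 0.05, against 3.04% of all. These were Cxcl14 and Cxcr1, both lower with the deficient diet. By direction alone, 15 probe sets were higher and 19 lower, with a median difference of -0.087 on the log2 scale, against 0.00059 over all tested. The bulk samples cannot tell fewer cells of a type from less RNA per cell.

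For Cxcl14 the probe set rc_AA874803_at averaged 6.50 ± 1.89 (SD, n = 5) with the standard diet and 4.39 ± 0.47 (n = 4) with the deficient diet. The difference was -2.10 (95% interval -3.94 to -0.27), with an unadjusted limma p of 0.028 and an adjusted limma p of 0.999. The other Cxcl14 probe set differed by -1.75 (95% interval -4.55 to 1.05). Leaving out any of standard 6, 7 or 10 or deficient 12 or 13 put the unadjusted limma p of rc_AA874803_at between 0.051 and 0.075. Without standard 9 its difference was -2.72 with an unadjusted limma p of 0.0035. Over all arrays left out singly, rc_AA874803_g_at ran from -2.89 (without standard 9) to -1.14 (without standard 6). Without supplemented 5, standard 10 and deficient 13 together, the difference of rc_AA874803_at was -1.63 with an unadjusted limma p of 0.106. Standard 8 and 9 lay within or near the range of the deficient arrays, so the mean difference rested on standard 6, 7 and 10.

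Cxcr1 averaged 5.49 ± 0.34 (n = 5) with the standard diet and 4.82 ± 0.66 (n = 4) with the deficient diet. Its difference was -0.67 (95% interval -1.29 to -0.05), with an unadjusted limma p of 0.035 and an adjusted limma p of 0.999. Without deficient 12 the difference was -0.36, with an unadjusted limma p of 0.168, and without any of standard 6, 8 or 10 or deficient 13 the p lay between 0.052 and 0.073 in limma. Of 2 neutrophil marker genes on the array, S100a8 and S100a9, neither was above background on any array. Their summed signal ran from 12.2 to 23.4 units on standard arrays, from 19.96 to 40.96 units on deficient arrays and from 19.24 to 40.97 units on supplemented arrays. Its part in the Cxcr1 values was not tested.

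The receptors that were above background on every array differed little between the deficient and the standard diet. The difference was 0.06 (95% interval -0.75 to 0.87) for Il6r, 0.06 (95% interval -0.36 to 0.49) for Tnfrsf1a and -0.21 (95% interval -0.74 to 0.32) for Il4r. It was 0.23 (95% interval -0.45 to 0.90) for Tnfrsf21, 0.01 (95% interval -0.48 to 0.50) for Csf2rb and -0.23 (95% interval -0.76 to 0.31) for Cxcr4 (U90610_at). For the shared chain Il6st it was 0.18 (95% interval -0.66 to 1.02). Limma called none of these, and no interval here reached 1 on the log2 scale in either direction apart from that of Il6st.

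Among the inflammatory ligands, Il1b differed by 0.15 (95% interval -0.36 to 0.65) between the deficient and standard diets. Ccl2 differed by 0.18 (95% interval -0.47 to 0.83) and, on its dimmer probe set, by 0.29 (95% interval -0.25 to 0.83). For Il1a the difference was 0.32 (95% interval -0.38 to 1.03), for Il33 -0.20 (95% interval -1.02 to 0.62) and for Tnfsf13 -0.31 (95% interval -0.78 to 0.17). The Il18 probe sets had differences of opposite sign, 0.11 (95% interval -0.62 to 0.84) and -0.24 (95% interval -0.74 to 0.27). Csf1 differed by -0.21 (95% interval -0.86 to 0.45) and Csf3 by -0.08 (95% interval -0.77 to 0.60). The 95% intervals of 20 of the 34 probe sets lay within 1 log2 unit of 0 on both sides. For Ccl5 the interval was wide, 0.38 (95% interval -1.51 to 2.27), with a low array in each diet.

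By role, the 3 tested CC chemokine probe sets were higher with the deficient than with the standard diet (0.18 to 0.38), and the 4 tested CXC chemokine probe sets were lower (-2.10 to -0.10). All 3 tested chemokine receptor probe sets were lower (-0.67 to -0.13). Of 8 interleukin probe sets 6 were higher, with a median of 0.18, and of 7 interleukin receptor probe sets 5 were lower, with a median of -0.12. The 4 TNF receptor probe sets had a median of 0.14, with 3 higher. The 3 CC chemokine probe sets stood for 2 genes, the 4 CXC chemokine probe sets for 3 and the 3 chemokine receptor probe sets for 2. These counts by role were the same with the deposited values and with median centring, but Ccl5 stood at -0.27 without standard 6 and Cxcl10 at 0.066. Leaving out single arrays also turned the sign for Cxcr4 (U90610_g_at), Il18 (U77777_s_at), Il1a (D00403_at), Il33, Il6r, Il1r2, Tnfrsf1a and Tnfrsf11b. An untested Cxcr4 probe set, rc_AA945737_at, was higher by 0.61 with no filter. No tested cytokine probe set was called by limma, so the directions are counts and not changes.

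**Figure D4:**
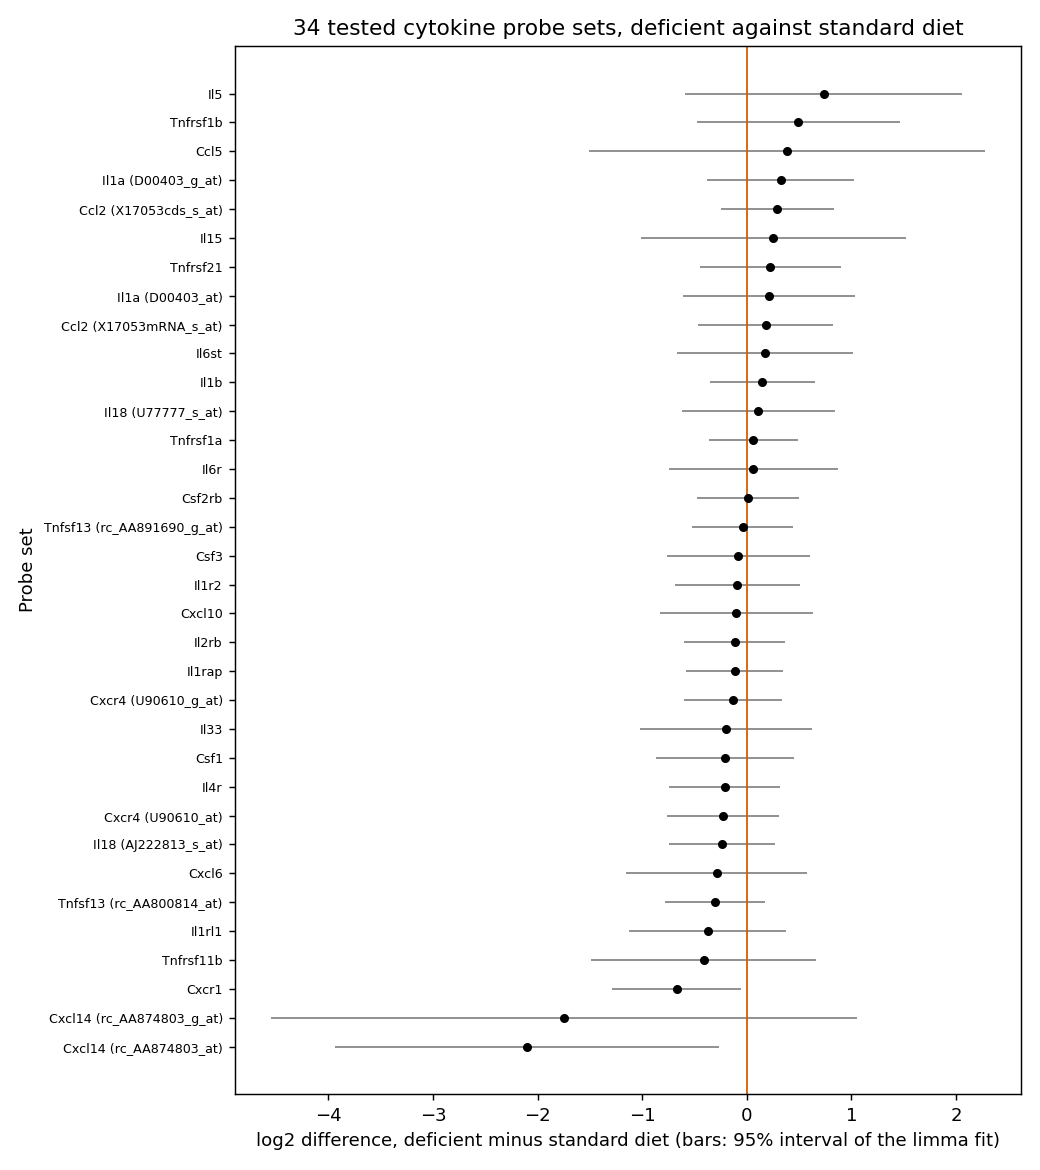
Difference between the deficient and the standard diet on the log2 scale, with the 95% interval, for the 34 tested cytokine probe sets. Only the intervals of Cxcl14 (rc_AA874803_at) and Cxcr1 lie below 0 throughout, and 20 of 34 lie within 1 on both sides.

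The supplemented and the standard diet also gave no called cytokine gene. With limma, 0 of 34 probe sets had an adjusted p under 0.05, where 0.00% of all were called. Without adjustment the count was again 0 of 34, against 8.88% of all tested. By direction 12 were higher and 22 lower with the supplemented diet, with a median of -0.075 against -0.016 over all. Of 34 intervals 25 lay within 1 log2 unit of 0. Il2rb differed by -0.33 (95% interval -0.79 to 0.13). Il15 differed by -0.81 (95% interval -1.999 to 0.38), and by -0.11 without supplemented 5.

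Between the deficient and the supplemented diet, 0 of 34 cytokine probe sets were called by limma at an adjusted p under 0.05, where 0.0195% of all were. None of the 34 had an unadjusted p under 0.05, against 13.0% of all tested. The members divided into 17 higher and 17 lower, with a median of 0.015 against 0.023 over all, and 21 of 34 intervals lay within 1 log2 unit of 0. Il15 differed by 1.06 (95% interval -0.20 to 2.33). Without supplemented 5 its difference was 0.37, and with the Gapdh ratio as a covariate it was -0.28. The dimmer Il18 probe set differed by -0.45 (95% interval -0.96 to 0.05), and Cxcl14 (rc_AA874803_at) by -1.31 (95% interval -3.14 to 0.53). The Cxcl14 difference was -0.82 without supplemented 5 and -0.60 without the 3 arrays that stood apart. The limma F-test of any difference over the 3 diets called 0 of 34, with 0 of 34 also at an unadjusted p under 0.05, and it called 0.0195% of all.

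Non-overlap of the arrays was counted over all 89 probe sets with no filter. Deficient and standard arrays did not overlap for 1 member, Ccr3 (1.12% of the 89, against 1.20% of all probe sets). Supplemented and standard arrays did not overlap for 1, Il1rl2 (1.12%, against 1.28% of all). Deficient and supplemented arrays did not overlap for 2, Il18 and Il1rl2 (2.25%, against 3.50% of all). Ccr3, the eosinophil receptor, and Il1rl2 were above background on no array.

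The spread between arrays of a diet was wide for the tested cytokine probe sets. Their median SD within a diet was 0.51 on the log2 scale, against 0.39 over all 5133. For Cxcl14 it was 2.27 and 1.48 on its probe sets, for Ccl5 1.52, for Il5 1.02 and for Il15 1.00, and for Tnfrsf1a 0.28. The difference in spread was not tested. Cytokine probe sets were also above background on all 14 arrays less often than all probe sets, 12.4% against 32.0% before the filter. The part of signal level in the spread was not tested. For 9 of the 19 genes with more than 1 probe set, some passed the filter and some did not, so the choice of probe set decided whether the gene was tested.

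The genes through which cytokines signal were looked at from lists. Of 27 listed genes of NF-kB and Toll signalling 5 were on the array with a single symbol and 4 were tested, and of 22 JAK-STAT genes 17 were on the array and 11 were tested. In all 3 comparisons limma called 0 of both lists, and without adjustment the NF-kB and Toll list had 1 gene with a p under 0.05 in the deficient and supplemented comparison and 0 in the others, the JAK-STAT list 1 in each. Of all tested, 3.04% had such a p between deficient and standard, 8.88% between supplemented and standard and 13.0% between deficient and supplemented, and these shares hold for the lists that follow. At an unadjusted limma p under 0.05, Jak3, the kinase of the common gamma chain in lymphocytes, was higher with the deficient than with the standard diet by 1.46 (95% interval 0.10 to 2.81). Its levels were 3.66, 4.16, 4.78, 5.03 and 1.97 on the supplemented arrays, 2.66, 4.86, 4.50, 2.53 and 4.82 on the standard arrays and 5.32, 5.45, 5.98 and 4.59 on the deficient arrays. The standard and deficient arrays overlapped slightly, and Jak3 was above background on 3 arrays. Against the supplemented diet its difference was 1.41, and -0.061 with the Gapdh ratio as a covariate. Cish, a feedback inhibitor of STAT5 signalling, was higher with the supplemented than with the standard diet by 1.30 (95% interval 0.23 to 2.37), at an unadjusted p under 0.05 that limma's adjustment did not keep.

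Nfkbia, the inhibitor that NF-kB itself induces, read 6.69, 7.77, 7.35, 6.71 and 5.45 on the supplemented arrays, 7.41, 7.47, 8.25, 6.74 and 7.90 on the standard arrays and 7.63, 8.05, 7.57 and 7.47 on the deficient arrays. Supplemented 5 was the lowest array. Its deficient minus supplemented difference was 0.88 (95% interval 0.05 to 1.72), past an unadjusted limma p of 0.05, 0.55 without supplemented 5 and 0.21 with the Gapdh ratio as a covariate.

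Cytokines outside the symbol rule were measured for 20 of 26 listed genes, of which 7 were tested and 0 called by limma in any comparison. Without adjustment, the number with a limma p under 0.05 was 0 between deficient and standard, 1 between supplemented and standard (Hgf, the hepatocyte growth factor, lower with the supplemented diet) and 4 between deficient and supplemented, all higher with the deficient diet, against 3.04%, 8.88% and 13.0% of all tested. The Hgf difference of -1.25 was -0.80 without supplemented 5, where Hgf was at the floor, and -0.50 with the Gapdh ratio as a covariate. Among the 4 were Mif, a cytokine stored in many cells, at 0.57 (95% interval 0.13 to 1.00), and Tgfb1, the fibrogenic factor, at 1.31 (95% interval 0.27 to 2.34). Tgfb1 was dim, above background on 2 arrays only, and its deficient and supplemented arrays overlapped. Mif read 11.39, 10.71, 10.63, 11.17 and 10.85 on the supplemented arrays, 11.29, 10.96, 11.23, 10.77 and 11.25 on the standard arrays and 11.73, 11.97, 10.98 and 11.39 on the deficient arrays. The deficient arrays overlapped the supplemented ones.

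The genes that cytokines switch on in liver and vessel walls were well covered, with 26 of 29 on the array and 23 tested. They include haptoglobin, the fibrinogen chains, Crp, Lbp, Icam1 and Nos2. Limma called 0 in all 3 comparisons, with 2 at an unadjusted p under 0.05 between supplemented and standard (Fgb and Fga, both higher with the supplemented diet) and 1 higher and 1 lower (A2m and Mx2) between deficient and supplemented, where 8.88% and 13.0% of all tested had such a p. With median centring the differences of Fgb and Fga went from 0.35 to 0.11 and from 0.29 to 0.047. Between the deficient and standard diets 14 were higher and 9 lower, with a median of 0.048, and 1 was lower at an unadjusted p under 0.05. This was Mx2, an interferon-induced GTPase, with levels of 7.66, 6.31, 7.19, 7.32 and 6.12 on the supplemented arrays, 6.53, 6.22, 6.46, 7.15 and 6.54 on the standard arrays and 3.55, 5.61, 6.06 and 6.09 on the deficient arrays. Its difference was -1.25 (95% interval -2.24 to -0.26), and -0.66 without deficient 11.

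Markers of the cells that make cytokines bear on how far these values reach. Of 9 Kupffer cell and macrophage genes on the array, 6 were above background on all 14 arrays, with a summed signal of 1362 to 2158 units on supplemented, 1307 to 1653 on standard and 1369 to 1696 on deficient arrays. Of 8 T cell genes 1 (Lck) was above background on all arrays. Cd4 was above it on 3 arrays and Cd5 on 1, and Cd8a, Cd8b, Cd2 and the defining genes Cd3d and Cd3g on none. Of 5 natural killer cell genes 0 were above background on all 14 arrays: Gzmb was above it on 3, Klrb1a, Klrd1 and Ncr1 were on none but off the floor throughout, and Prf1 was at the floor on all 14. The summed signal of 3 leukocyte genes was 54.0 to 80.7 units on standard, 81.8 to 111 units on deficient and 31.6 to 96.7 units on supplemented arrays. The standard and deficient ranges lay close together without overlap. Arrays of these diets also did not overlap for 1.20% of all probe sets taken singly. By gene, the mean log2 level on standard and deficient arrays was 4.59 and 5.72 for Coro1a, 2.04 and 3.48 for Cd44, which was above background on no array, and 4.68 and 4.77 for Ptprc, so the sum moved with Coro1a and Cd44 and little with Ptprc. The part of cell makeup in the cytokine values was not tested.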

How the data were processed

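Liver RNA was hybridised to 14 arrays. The deposited table holds 1 linear signal (intensity) per probe set and array. How the authors computed and scaled these signals is not given in the sources used here, and no detection calls were used. Precision is limited by the 4 or 5 arrays of a diet. Diet and array number came from the sample titles, and 0 data columns were left unused. The 59 control probe sets were left out of the fit. Of the other 8740 probe sets, 7006 had 1 symbol in the platform annotation, 308 had several and 1426 had none, and the table of current rat genes held all 63 member symbols. Because the array medians differed by up to 1.91 times, signals were quantile normalised on the log2 scale, raised to a floor at the pooled 20th percentile, and 5133 probe sets whose 14-array mean exceeded the pooled 40th percentile were tested. Quantile normalisation forces equal distributions, so a shift shared by most genes would not be seen, and the floor shrinks differences of dim probe sets.

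Differences were fitted with limma 3.58.1 (R 4.3.3), by lmFit followed by trended eBayes, with the 3 diets in 1 model and no covariate. P-values are two-sided and were adjusted by Benjamini-Hochberg over all 5133 probe sets. The fit was checked on simulated data with known changes. Members named individually were those at an unadjusted p under 0.05 in a comparison, the 10 genes above background on the most arrays, and inflammation genes listed by name. Some of the listed inflammation genes, among them Cxcl1, Cxcl12 and Csf2, were not analysed here. The others are given by their counts and by name. Ccl5, Il15, Il2rb, Il1rl2, Ccr3 and Tnfrsf8 were singled out after their values were seen. The members, the reference genes for background and the lists were chosen with earlier results of these data known. Alternatives were the deposited values without normalisation, median centring, other filters and floors, the Gapdh ratio as a covariate, each array left out in turn, 3 arrays left out together, the 2 diets compared alone, and other background levels.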

Additional observations from a re-analysis of the deposited data

Results flagged for a closer look

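Single arrays lay far from the others of their diet for 8 of 102 combinations of a tested cytokine probe set and a diet. The nominal rate of about 1 in 20 holds for independent, normally distributed values, and these probe sets share the same arrays. The share over all tested probe sets is not given here, so the count is not a trait of the cytokine genes. The measure is the gap to the nearest array divided by the range of the diet. It was 0.913 for Il15 (U69272_at) on supplemented 5, 0.786 for Ccl5 on supplemented 5 and 0.727 for Il18 (U77777_s_at) on supplemented 5, so 3 of the 8 were low values of the same array. That array had the lowest mean rank correlation with the other arrays (0.913) and the highest median signal (34.6 units). It also had the lowest Gapdh ratio, -0.12 on the log2 scale. The part of these array measures in the low values was not tested. Low values on standard 6 gave 0.869 for Tnfrsf1b, at 2.14 where the other standard arrays lay between 4.17 and 4.47, and 0.793 for Ccl5, at 2.87 where the others lay between 5.74 and 6.49. Il6st on supplemented 3 gave 0.756, at 4.23 where the others lay between 5.97 and 6.53. Il1b on deficient 14 gave 0.870, at 4.52 against 5.08 to 5.16, and Il1rl1 on standard 9 gave 0.743, at 4.51 against 5.38 to 5.69. All 8 were low values and none was high.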

How the results depend on the processing

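Adjusted calls by limma were 0 of the cytokine probe sets tested in every comparison, and in the F-test, under each alternative run. Counts at an unadjusted limma p under 0.05 moved. Between the deficient and standard diets the 2 became 6 of 89 with no filter, 1 with a filter at the 60th percentile, 1 with only the 2 diets compared, 0 without supplemented 5, standard 10 and deficient 13 together, and 0 to 3 with single arrays left out. Between supplemented and standard the 0 became 1 with no filter and 0 to 1 with single arrays left out. Between deficient and supplemented the 0 became 1 with the values as deposited, 4 with no filter and 0 to 1 with single arrays left out. With no filter more probe sets are tested, and those gained at an unadjusted limma p under 0.05 were below background on all arrays. The 9 genes above background on all arrays became 17 with the highest bacterial control. For the rest the cause was not tested.

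Of 52 differences of single probe sets, 35 kept their sign under each alternative run. With the Gapdh ratio as a covariate, the deficient minus standard difference became -0.083 for Il6r, -0.033 for Csf2rb and -0.011 for Il18 (U77777_s_at), the supplemented minus standard difference of Il15 became 0.29, and the deficient minus supplemented difference became -0.28 for Il15 and -0.061 for Jak3. Without the 3 arrays that stood apart the supplemented minus standard difference of Il15 was 0.050. Median centring gave 0.038 for Tnfsf13 (rc_AA891690_g_at), and the values as deposited gave -0.048 for Csf2rb. Leaving out single arrays, deficient minus standard ran from -0.14 to 0.35 for Il6r, -0.027 to 0.18 for Tnfrsf1a, -0.14 to 0.021 for Tnfsf13 (rc_AA891690_g_at), -0.49 to 0.041 for Il33, -0.067 to 0.42 for Il1a (D00403_at), -0.11 to 0.16 for Csf2rb, -0.27 to 0.035 for Cxcr4 (U90610_g_at), -0.12 to 0.33 for Il18 (U77777_s_at), -0.39 to 0.016 for Csf1, -0.29 to 0.15 for Csf3, -0.25 to 0.066 for Cxcl10, -0.37 to 0.10 for Il1r2, -0.74 to 0.22 for Tnfrsf11b and -0.27 to 1.00 for Ccl5. No paired analysis was possible because array numbers run on from diet to diet and none is shared. Signal over background limits the reading: the 55 untested probe sets are dim.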

Other observations

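The genes left out by the filter on dim probe sets gave 4, 1 and 4 further differences at an unadjusted limma p under 0.05 with no filter, in both directions. Il1rl2, a receptor of interleukin 36 cytokines, read 4.71, 4.19, 4.55, 4.29 and 4.03 on the supplemented arrays, 3.69, 3.29, 3.77, 2.80 and 2.67 on the standard arrays and 2.96, 3.06, 3.56 and 2.17 on the deficient arrays. All 5 supplemented arrays lay above all others. With no filter, limma gave a deficient minus supplemented difference of -1.41 ± 0.30 (SE) with an unadjusted p of 0.00055 and an adjusted p of 0.21, and a supplemented minus standard difference of 1.11 ± 0.29 with an unadjusted p of 0.0022 and an adjusted p of 0.54. Ccr3, the eotaxin receptor of eosinophils, read 3.76, 1.97, 2.32, 2.69 and 3.77 on the supplemented arrays, 3.30, 2.66, 2.89, 3.48 and 2.65 on the standard arrays and 2.38, 1.97, 1.97 and 1.97 on the deficient arrays. The deficient arrays were at or near the floor, and the deficient minus standard difference with no filter was -0.92 ± 0.36 with an unadjusted limma p of 0.025. Tnfrsf8 (CD30), a receptor of activated lymphocytes, read 1.97, 2.95, 4.00, 3.76 and 3.91 on the supplemented arrays, 2.61, 2.21, 1.97, 3.72 and 1.97 on the standard arrays and 2.00, 1.97, 1.97 and 1.97 on the deficient arrays. Its deficient minus supplemented difference with no filter was -1.34 ± 0.44, with an unadjusted limma p of 0.0100 and an adjusted p of 0.37. Both overlapped between the deficient and supplemented diets: supplemented 2 lay among the deficient values of Ccr3, and supplemented 1 was at the floor for Tnfrsf8. Higher with the deficient diet with no filter were Ccl3, by 0.76 ± 0.35 against the standard diet (unadjusted limma p of 0.049, adjusted p of 1), and the Cxcr4 probe set rc_AA945737_at, by 0.90 ± 0.39 against the supplemented diet (unadjusted limma p of 0.039, adjusted p of 0.47). Cxcl2 differed by -0.78 ± 0.35 between the deficient and standard diets with no filter (unadjusted limma p of 0.047). The Il1r1 probe set M95578_g_at differed by -0.69 ± 0.28 (unadjusted limma p of 0.031). Another Il1r1 probe set, M95578_at, went the other way, by 0.51 ± 0.25 (unadjusted limma p of 0.061). Il1rn was higher with the deficient than with the standard diet, by 1.00 ± 0.69 with no filter (unadjusted limma p of 0.172). All of these probe sets were above background on 0 arrays, and the shares of the 89 cytokine probe sets whose arrays did not overlap between diets are given in the report beside those of all probe sets.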
